A study of Mus musculus with 5 samples.

Results

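The genes described here are 41 genes of DNA replication and the cell cycle, out of the 50867 genes listed in the deposited table. They were taken by name: 15 act in DNA replication, 11 regulate the step from G1 to S phase, and 15 act in mitosis or on the way into it. All 41 were found, each on 1 row. Ba/F3 is a mouse pro-B cell line that grows on interleukin-3, and total RNA was sequenced from cells infected with lentivirus. The 5 libraries, 1 for each group, carry the labels PMSCV (the name of a retroviral vector, taken as the reference), WT, S_PXT1, and their counterparts WT_K118R and S_PXT1_K118R. K118R names a lysine to arginine substitution. The labels do not spell out S or WT, and they give no time after infection. The title of the series names an oncofusion in paediatric leukaemia. There were no replicates, so differences are given with counting error alone and without a test. Values listed without library names are in the order PMSCV, WT, WT_K118R, S_PXT1 and S_PXT1_K118R.

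Before a cell copies its DNA, it loads the MCM2 to MCM7 helicase onto replication origins, a step that needs CDC6 and CDT1. The cell passes from G1 into S phase when cyclin D with CDK4 or CDK6, and cyclin E with CDK2, phosphorylate RB1 and so release E2F transcription factors, which switch on many replication genes. Mitotic genes are switched on later, in G2, when CDK1 with cyclins A and B, the Polo-like and Aurora kinases and the kinesins prepare chromosome segregation. Cells that cycle quickly, as cytokine-dependent blood cell lines do, hold much of this mRNA.

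The table names genes by human identifiers although the labels give mouse cells, so a count is the number of reads assigned to a human gene model. Whether the table holds the mouse cells of the labels could not be settled from the files, and this bears on every count given here. The library totals were 250409 to 351693 counts, and 1 count was worth 2.92 to 3.93 CPM, the count scaled to a common library size by the trimmed mean of M values (TMM). For folds a count of 0 was set to a floor of 3 counts, or 8.77 to 11.8 CPM, the usual one-sided limit, while the exact 95% Poisson interval of a 0, reaches 10.8 to 14.5 CPM. Among the markers of blood progenitors and pro-B cells, CD79A, VPREB1, IGLL1 and IL3RA were at 0 in all 5 libraries. GATA2 had 96, 128, 123, 202 and 84 counts, IKZF1 27, 31, 28, 24 and 34, and SPI1 113, 173, 1, 139 and 128, so that WT_K118R stood apart for SPI1. The counted markers summed to 250, 365, 159, 367 and 247, or 1.61 (1.37 to 1.9) for S_PXT1 over PMSCV and 0.441 (0.364 to 0.533) for WT_K118R over WT. GATA2, IKZF1 and SPI1 held most of these counts. Any other marker had at most 4 counts in PMSCV (CD24) and at most 1 in S_PXT1. The ratio of 1.61 thus rests on GATA2 and SPI1 and does not describe the list as a whole. PXT1, the gene in the construct labels, was at 0 in all 5 and so checked no label. The libraries also differed in reads on genes of other tissues. The 17 epithelial markers summed to 458, 1135, 684, 1 and 2 counts. The 12 immunoglobulin genes summed to 748, 505, 29, 2 and 2, so that both lists were near 0 in the S_PXT1 libraries. These values bear on every gene with few counts, and they are given again where such genes are compared. Fewer cells in cycle and less mRNA per cell cannot be told apart in bulk RNA.

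What the 3 groups of genes share beyond their names was looked for in the mouse promoters, since transcription of these genes is timed through short promoter motifs. RefSeq windows of GRCm38.p6, from 250 bases before to 50 after the start, matched 34 of the 41 genes by symbol. The other 7 were AURKB, CCNA2, CCND2, CCNE2, GINS2, MCM4 and RB1. The windows were searched on both strands for the letters TTTCCCGC, TTTCGCGC, TTTGCCGC and TTTGGCGC, which E2F factors bind, for TTTGAA, the cell cycle genes homology region (CHR) of mitotic promoters, and for CCAAT, the site of NF-Y. E2F letters stood in the windows of 7 of 13 replication genes (53.8%), 1 of 8 G1/S regulators (12.5%) and 2 of 13 mitotic genes (15.4%), against 3.29% of 17492 protein-coding genes. CHR letters stood in 9 of 13 mitotic genes (69.2%), 1 of 13 replication genes (7.69%) and 0 of 8 G1/S regulators, against 18.5%. CCAAT stood in 12 of 13 mitotic genes (92.3%), 9 of 13 replication genes (69.2%) and 3 of 8 G1/S regulators (37.5%), against 42.3%. The short motifs are common by chance, and a match is not a bound site.

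**Figure D1:**
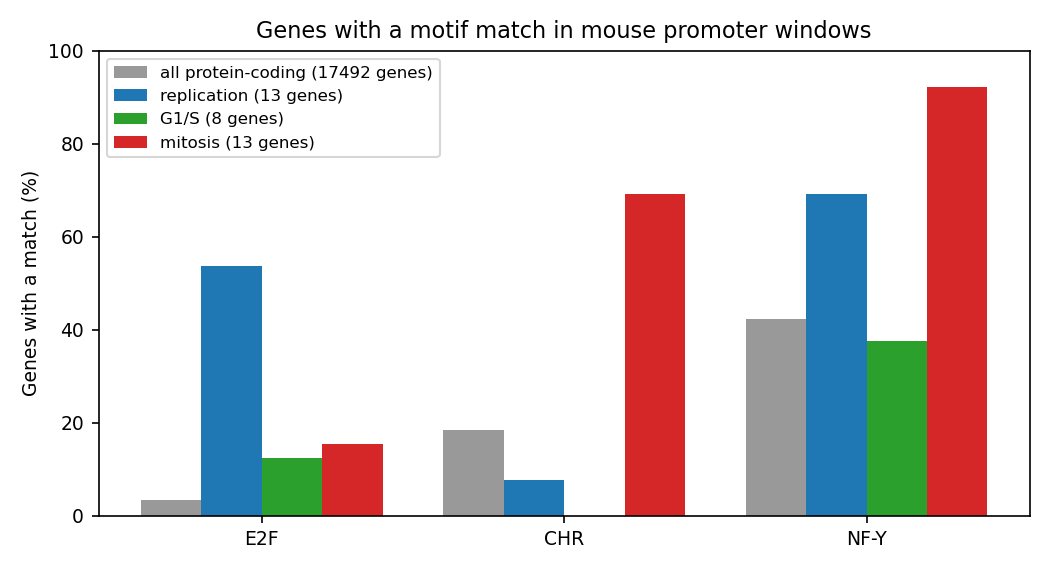
Share of genes (%, vertical axis) with at least 1 match of the E2F, CHR or NF-Y motif in a mouse promoter window, for all protein-coding genes and the 3 groups. The replication genes stand out for E2F (53.8% against 3.29%) and the mitotic genes for CHR (69.2% against 18.5%).

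The windows of 4 well-counted genes show such matches, with capitals for every match on either strand. Mcm7 and Pola1 are replication genes and Top2a is mitotic. Cdk2 is the 1 gene with E2F letters among the 8 G1/S regulators that had a window. Mcm7, Pola1 and Cdk2 hold E2F letters and no CHR letters, and Top2a holds CHR letters and no E2F letters. In Mcm7 the second E2F match and a CCAAT overlap. Each line gives the 300 bases of a window, read 5′ to 3′ on the gene's strand.
Mcm7: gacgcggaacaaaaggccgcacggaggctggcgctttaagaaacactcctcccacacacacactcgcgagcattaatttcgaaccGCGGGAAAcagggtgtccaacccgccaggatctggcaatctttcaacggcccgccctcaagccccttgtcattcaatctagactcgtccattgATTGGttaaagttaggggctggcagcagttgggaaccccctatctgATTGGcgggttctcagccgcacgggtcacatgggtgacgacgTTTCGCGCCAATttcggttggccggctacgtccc
Pola1: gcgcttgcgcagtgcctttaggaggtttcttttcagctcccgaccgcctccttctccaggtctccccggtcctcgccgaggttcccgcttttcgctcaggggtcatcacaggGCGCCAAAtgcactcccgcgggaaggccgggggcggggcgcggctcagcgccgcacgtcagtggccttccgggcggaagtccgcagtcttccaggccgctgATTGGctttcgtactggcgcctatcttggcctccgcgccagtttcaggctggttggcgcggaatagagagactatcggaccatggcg
Cdk2: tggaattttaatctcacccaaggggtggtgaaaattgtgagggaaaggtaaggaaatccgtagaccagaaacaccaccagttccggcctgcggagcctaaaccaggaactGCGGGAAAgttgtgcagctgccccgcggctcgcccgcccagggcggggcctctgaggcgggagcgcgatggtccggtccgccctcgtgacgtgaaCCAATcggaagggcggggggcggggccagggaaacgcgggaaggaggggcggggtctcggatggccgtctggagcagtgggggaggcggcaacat
Top2a: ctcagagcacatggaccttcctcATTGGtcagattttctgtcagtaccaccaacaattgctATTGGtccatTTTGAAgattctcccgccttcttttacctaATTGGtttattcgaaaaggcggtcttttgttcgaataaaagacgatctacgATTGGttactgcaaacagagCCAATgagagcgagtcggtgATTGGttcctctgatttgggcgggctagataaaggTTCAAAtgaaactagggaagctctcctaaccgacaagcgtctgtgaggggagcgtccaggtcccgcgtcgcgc
Mcm7 is at chr5:138171834-138172133 and has 2 E2F and 3 CCAAT matches. Pola1 is at chrX:93632106-93632405 and Cdk2 at chr10:128705002-128705301, each with 1 of both. Top2a is at chr11:99024140-99024439, with 2 CHR and 6 CCAAT matches. All 4 lie on the minus strand.

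Most of the 41 genes had few counts. A mean of at least 10 counts over the 5 libraries was reached by 7 members and by 2322 of the 16237 genes with any count. Another 33 lay above 0 and below 10, and RFC4, a subunit of the clamp loader, was at 0 in all 5 libraries. RFC4 overlaps EIF4A2 on the other strand, which had 473 to 627 counts, and no label or header says whether counting used the strand. In the library with the most, 34 of the 41 genes had at least 1 count, and in S_PXT1, the library with the fewest, 26.

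**Figure D2:**
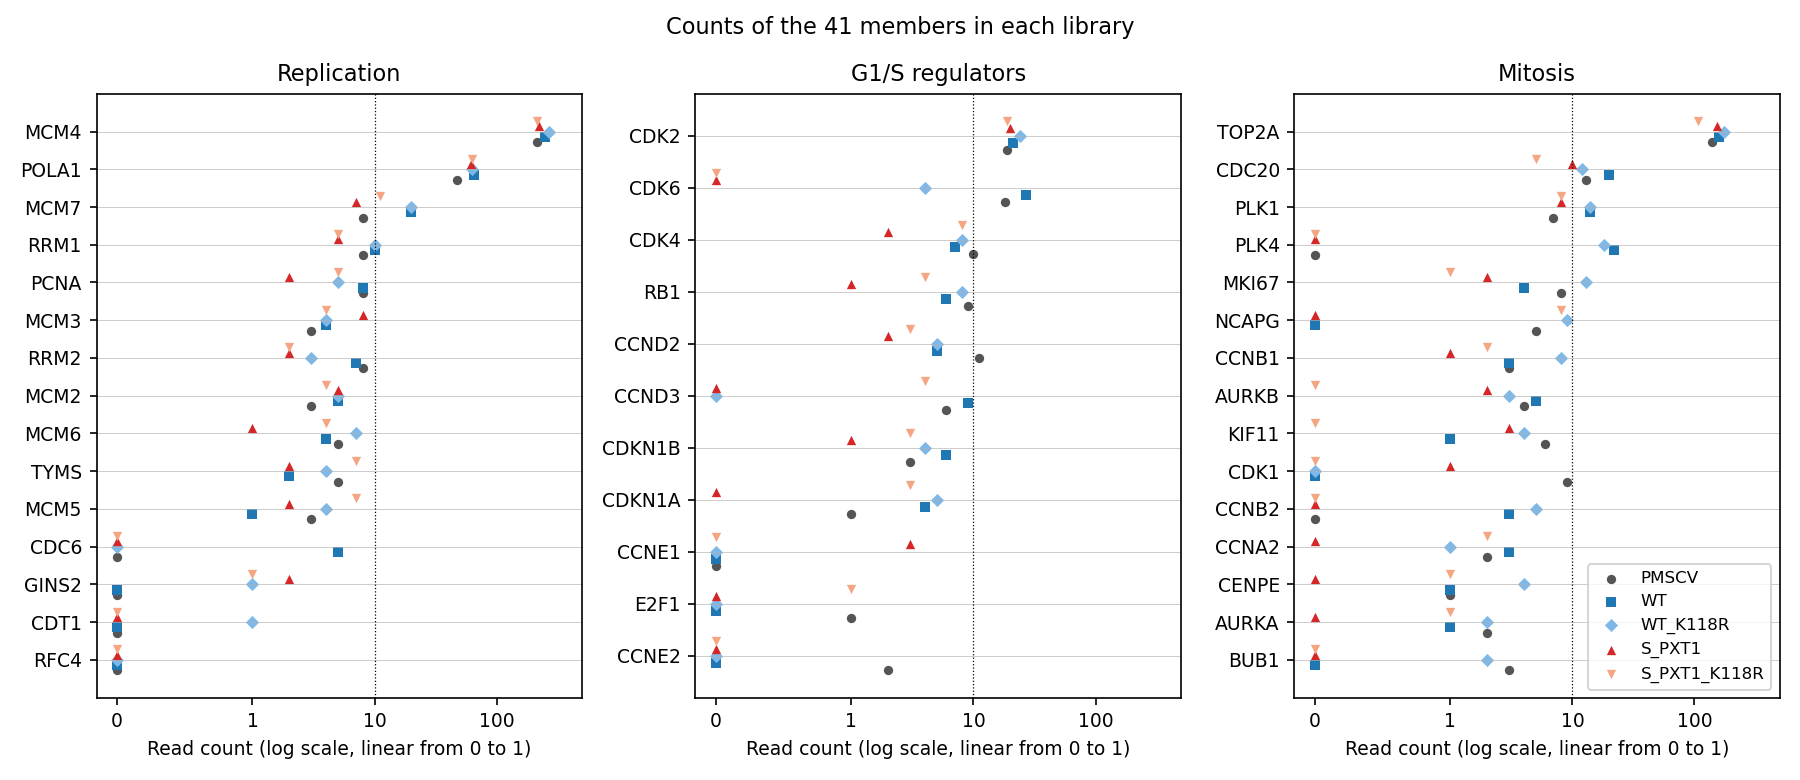
Read counts (horizontal axis, log scale, linear from 0 to 1) of the 41 genes in each library, in 3 panels by role, with a dotted line at 10 counts and points offset vertically to be seen. MCM4, POLA1, CDK2 and TOP2A sit close together in all 5 libraries, while CDK6 and PLK4 are at 0 in some libraries and above 15 in others.

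Of the 3 well-counted replication genes, MCM4 differed least between libraries and MCM7 most. MCM4, a helicase subunit (ENSG00000104738, chromosome 8, 47960185 to 47978160 in human coordinates of a build that no label or header names), had 213, 250, 269, 224 and 214 counts. Scaled, these were 757.5, 731.1, 797.2, 873.3 and 841.3 CPM, so that the highest library stood 1.19-fold above the lowest. Over the 330 genes whose mean count lay within 2-fold of that of MCM4, the median of this ratio was 1.33. POLA1, the catalytic subunit of the primase-polymerase that starts each new strand (ENSG00000101868, chromosome X, 24693919 to 24996986), had 47, 65, 63, 62 and 63 counts in the same order. It was lowest in PMSCV, at 167.1 CPM, and highest in S_PXT1_K118R, at 247.7 CPM, a ratio of 1.48 against a median of 1.49 for 781 genes of similar counts.

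MCM7, another helicase subunit (ENSG00000166508, chromosome 7, 100092728 to 100101940), had 8, 20, 20, 7 and 11 counts. Both WT libraries were above the other 3. The ratio of WT to PMSCV was 2.06, with an exact 95% counting interval from 0.867 to 5.40. S_PXT1 against WT gave 0.467 (0.167 to 1.15). Both intervals include 1, so at this depth the difference was within counting error.

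The other 12 replication genes had 0 to 10 counts in any library. They include the remaining helicase subunits MCM2, MCM3, MCM5 and MCM6, the sliding clamp PCNA, the ribonucleotide reductase subunits RRM1 and RRM2, and thymidylate synthase TYMS. PCNA had 8, 8, 5, 2 and 5 counts. RRM2, the subunit whose level limits the making of deoxynucleotides in S phase, had 8, 7, 3, 2 and 2. The loading factor CDC6 was counted in WT alone, with 5 counts, and CDT1 in WT_K118R alone, with 1. GINS2, a part of the active helicase, had 0 to 2 counts. Among the helicase subunits MCM2 had 3, 5, 5, 5 and 4 counts, MCM3 had 3, 4, 4, 8 and 4, MCM5 had 3, 1, 4, 2 and 7, and MCM6 had 5, 4, 7, 1 and 4. RRM1 had 8, 10, 10, 5 and 5, and TYMS had 5, 2, 4, 2 and 7. No library was the lowest for all of these, and 8 of the 12 genes were counted in all 5 libraries.

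Summed over all 15 replication genes, the level was 1106 CPM in PMSCV, 1114 in WT, 1174 in WT_K118R, 1255 in S_PXT1 and 1286 in S_PXT1_K118R. MCM4 made up 65.4% to 69.6% of these counts. The 6 ratios between libraries ran from 1.01 (0.865 to 1.17) for WT over PMSCV to 1.14 (0.968 to 1.33) for S_PXT1 over PMSCV, and every interval included 1. With size factors from DESeq2 the interval lay just above 1 for S_PXT1 over PMSCV, at 1.19 (1.01 to 1.39), and for S_PXT1 over WT, at 1.18 (1.01 to 1.37). Without MCM4 the sums were 348.5, 383.1, 376.4, 382.1 and 444.2 CPM.

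**Figure D3:**
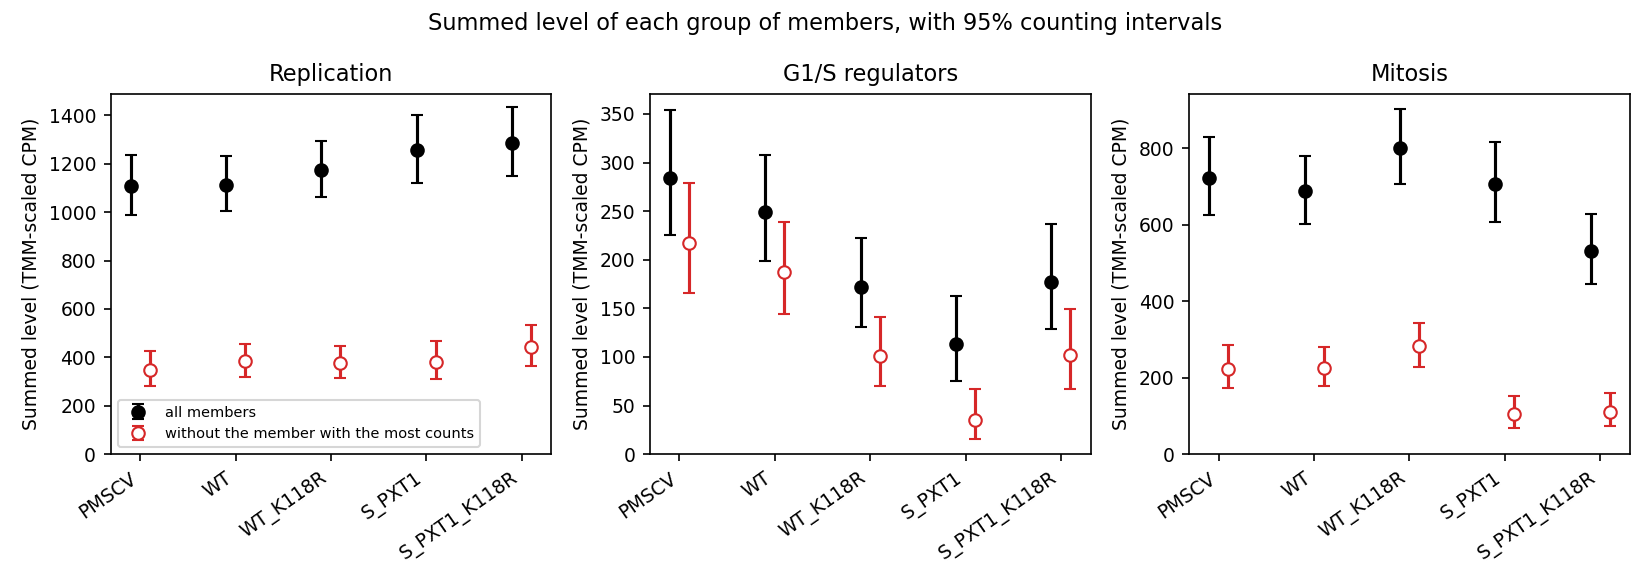
Summed level (vertical axis, TMM-scaled CPM) of the 3 groups in each library, over all members (filled) and without MCM4, CDK2 or TOP2A, the member with the most counts in its group (open). Bars are exact 95% counting intervals. The replication sums overlap in all libraries, the G1/S sum is lowest in S_PXT1 (113.1 CPM against 284.5 in PMSCV), and the mitosis sum is lowest in S_PXT1_K118R (530.7 CPM).

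Among the G1/S regulators, CDK2, the kinase of cyclin E, was level, and CDK6, a kinase of cyclin D, was not. CDK2 (ENSG00000123374, chromosome 12, 55966769 to 55972784) had 19, 21, 24, 20 and 19 counts. No pair of libraries differed in CDK2 by more than 1.27-fold. CDK6, which pairs with D cyclins and is abundant in blood cells (ENSG00000105810, chromosome 7, 92604921 to 92836594), had 18, 27 and 4 counts in PMSCV, WT and WT_K118R, and 0 in S_PXT1 and S_PXT1_K118R. With the 0 at the floor of 3 counts it was at least 5.47-fold lower in S_PXT1 than in PMSCV and at least 6.75-fold lower than in WT. The exact 95% intervals, which allow more at a 0, begin at 4.01-fold and 5.12-fold. It was also 6.66-fold lower in WT_K118R than in WT (95% interval 2.32 to 26.2).

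The reads of CDK6 stood in the libraries that also held immunoglobulin reads, of which there were 748, 505 and 29 in the 3 libraries with CDK6 and 2 in each of the 2 without. Epithelial reads stood in the same 3 libraries, at 458, 1135 and 684, against 1 in S_PXT1 and 2 in S_PXT1_K118R. From WT to WT_K118R the sums of both lists fell, that of the immunoglobulin list by more. The epithelial genes did not move together. KRT4, KRT13, SPRR3 and CRNN went from 262, 266, 125 and 69 counts to 0, 1, 1 and 0. KRT5, KRT6A and KRT14 rose, from 106, 83 and 28 counts to 161, 176 and 135. The part of either kind of reads in the CDK6 values was not tested. CDK4, the second kinase of D cyclins, had 10, 7, 8, 2 and 8 counts. It was counted in both S_PXT1 libraries, unlike CDK6.

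CCND2 and RB1 were lowest in S_PXT1. CCND2, a cyclin that cytokines induce in lymphoid cells, had 11, 5, 5, 2 and 3 counts. CCND3, the related cyclin, had 6, 9, 0, 0 and 4, so that it was at 0 in 1 library of each background. RB1, the repressor of E2F, had 9, 6, 8, 1 and 4. RB1 was 8.21-fold lower in S_PXT1 than in PMSCV with an interval from 1.14 to 359.8, and CCND2 was 5.02-fold lower (1.09 to 46.6). The intervals reach close to 1.

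The inhibitors of cyclin-dependent kinases were low everywhere. CDKN1A (p21) had 1, 4, 5, 0 and 3 counts, and CDKN1B (p27) had 3, 6, 4, 1 and 3. The E cyclins and E2F1 were close to undetected. CCNE1 had 3 counts in S_PXT1 and 0 elsewhere, CCNE2 had 2 in PMSCV and 0 elsewhere, and E2F1 had 1 in PMSCV and 1 in S_PXT1_K118R. No direction can be given for these 5 genes at this depth.

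The 11 G1/S regulators summed to 80, 85, 58, 29 and 45 counts. S_PXT1 over PMSCV was 0.397 (0.25 to 0.615), and S_PXT1 over WT, which shares the S_PXT1 library, 0.455 (0.288 to 0.701). Without CDK2 these ratios were 0.162 (0.0706 to 0.328) and 0.187 (0.0820 to 0.379). WT_K118R over WT was 0.692 (0.486 to 0.977), and 0.538 (0.344 to 0.828) without CDK2, where CDK6 alone went from 27 counts to 4. All genes of the table with a mean below 10 counts, summed in the same way, gave 0.427 and 0.471 in the same comparisons, so low-count reads were fewer in S_PXT1 across the table. The intervals of the 11 regulators include these values, and those without CDK2 lie below them. Without CDK2 the counts were 61 in PMSCV, 64 in WT and 9 in S_PXT1. CDK6 alone gave 18, 27 and 0 of these, and whether the ratios stay below those values without CDK6 was not tested. In the sum of the 11 regulators S_PXT1_K118R showed no gap to WT_K118R, at 1.03 (0.681 to 1.55), while all low-count genes together gave 0.466.

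Mitotic genes were led by TOP2A, the topoisomerase that untangles sister chromatids (ENSG00000131747, chromosome 17, 40388516 to 40417950). It had 140, 158, 175, 154 and 107 counts, or 497.9, 462.1, 518.6, 600.4 and 420.6 CPM. S_PXT1 was the highest library and S_PXT1_K118R the lowest. S_PXT1_K118R over S_PXT1 was 0.701 (0.542 to 0.902), an interval below 1, and WT_K118R over WT was 1.12 (0.900 to 1.40). Genes with counts similar to TOP2A had a median of 1.37 between their highest and lowest library, where TOP2A had 1.43.

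CDC20, the activator of the anaphase-promoting complex (ENSG00000117399, chromosome 1, 43358955 to 43363203), had 13, 20, 12, 10 and 5 counts. Both K118R libraries were below their counterparts, at 0.504 (0.135 to 1.62) and 0.608 (0.271 to 1.31), and neither difference exceeded counting error. PLK1, the Polo-like kinase of mitotic entry (ENSG00000166851, chromosome 16, 23677656 to 23690367), had 7, 14, 14, 8 and 8. Its ratio was 1.01 in both K118R comparisons.

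PLK4, the kinase that starts centriole duplication (ENSG00000142731, chromosome 4, 127880861 to 127899195), was counted in the 2 WT libraries alone, with 22 counts in WT and 18 in WT_K118R against 0 in the other 3. It was at least 5.50-fold lower in S_PXT1 than in WT and at least 4.52-fold lower in S_PXT1_K118R than in WT_K118R, 2 comparisons with no library in common, and the exact intervals begin at 4.11-fold and 3.31-fold. In PMSCV, too, PLK4 was not counted.

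CDK1, the kinase that drives mitosis, had 9 counts in PMSCV, 1 in S_PXT1 and 0 in WT, WT_K118R and S_PXT1_K118R. MKI67, which encodes the proliferation antigen Ki-67, had 8 in PMSCV, 4 in WT, 13 in WT_K118R, 2 in S_PXT1 and 1 in S_PXT1_K118R. It was 3.29-fold higher in WT_K118R than in WT (1.02 to 13.9) and 9.80-fold lower in S_PXT1_K118R than in WT_K118R (1.47 to 416.5). NCAPG, a condensin subunit, had 9 and 8 counts in WT_K118R and S_PXT1_K118R, 5 in PMSCV and 0 in WT and S_PXT1. It was thus at least 3.04-fold and at least 2.69-fold higher with K118R in the 2 backgrounds, which share no library, and the exact intervals begin at 2.0-fold and 1.72-fold. NCAPG overlaps LCORL on the other strand, which had 32, 37, 28, 22 and 34 counts, and the part of such overlapping reads in the NCAPG counts was not tested.

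The other mitotic genes had 0 to 8 counts. Cyclin B1 (CCNB1) had 3 in PMSCV, 3 in WT, 8 in WT_K118R, 1 in S_PXT1 and 2 in S_PXT1_K118R. Cyclin B2 (CCNB2) had 3 in WT and 5 in WT_K118R and was at 0 in the other 3 libraries. The kinesin KIF11, which separates spindle poles, had 6, 1, 4, 3 and 0 in the order used for CCNB1, and Aurora kinase B (AURKB), which corrects kinetochore attachment, 4, 5, 3, 2 and 0. Cyclin A2 (CCNA2), the centrosomal kinase AURKA, the checkpoint kinase BUB1 and the kinetochore kinesin CENPE had 0 to 4 counts in any library, and all 4 were at 0 in S_PXT1.

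The 15 mitotic genes summed to 721.9 CPM in PMSCV, 687.3 in WT, 800.2 in WT_K118R, 705.6 in S_PXT1 and 530.7 in S_PXT1_K118R. S_PXT1_K118R was the lowest library, at 0.752 of S_PXT1 (0.597 to 0.945) and 0.663 of WT_K118R (0.535 to 0.818). The sum of the 12 stress genes was also lower, at 0.565 (0.458 to 0.697) of S_PXT1 and 0.336 (0.278 to 0.405) of WT_K118R. The chaperone HSP90AA1 gave 17 of its 143 counts in S_PXT1_K118R, against 103 of 255 in S_PXT1 and 231 of 564 in WT_K118R. Not every stress gene fell, as DNAJB1 had 24 counts in S_PXT1_K118R and 23 in S_PXT1. The 12 mesenchyme and muscle genes were at 1.08 (0.884 to 1.33) and 0.432 (0.366 to 0.506). The part of either list in the mitosis sum was not tested. The first of the mitosis ratios rested on TOP2A, since it was 1.05 (0.594 to 1.84) without that gene. Without TOP2A, S_PXT1_K118R over WT_K118R was 0.391 (0.247 to 0.601) and S_PXT1 over WT 0.467 (0.290 to 0.733). The 12 mitotic genes below a mean of 10 counts gave 0.288 (0.153 to 0.509) and 0.279 (0.120 to 0.580) there, where all low-count genes gave 0.466 and 0.471. Both intervals of the 12 include the value of all low-count genes. PLK4 alone gave 18 of their 69 counts in WT_K118R and 22 of 43 in WT, against 0 in both S_PXT1 libraries. For WT_K118R over WT the 12 mitotic genes gave 1.63 (1.10 to 2.44), where all low-count genes gave 0.979. MKI67 gave 13 of the 69 counts in WT_K118R and 4 of the 43 in WT, and NCAPG gave 9 and 0. The ratio without these genes was not tested.

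**Figure D4:**
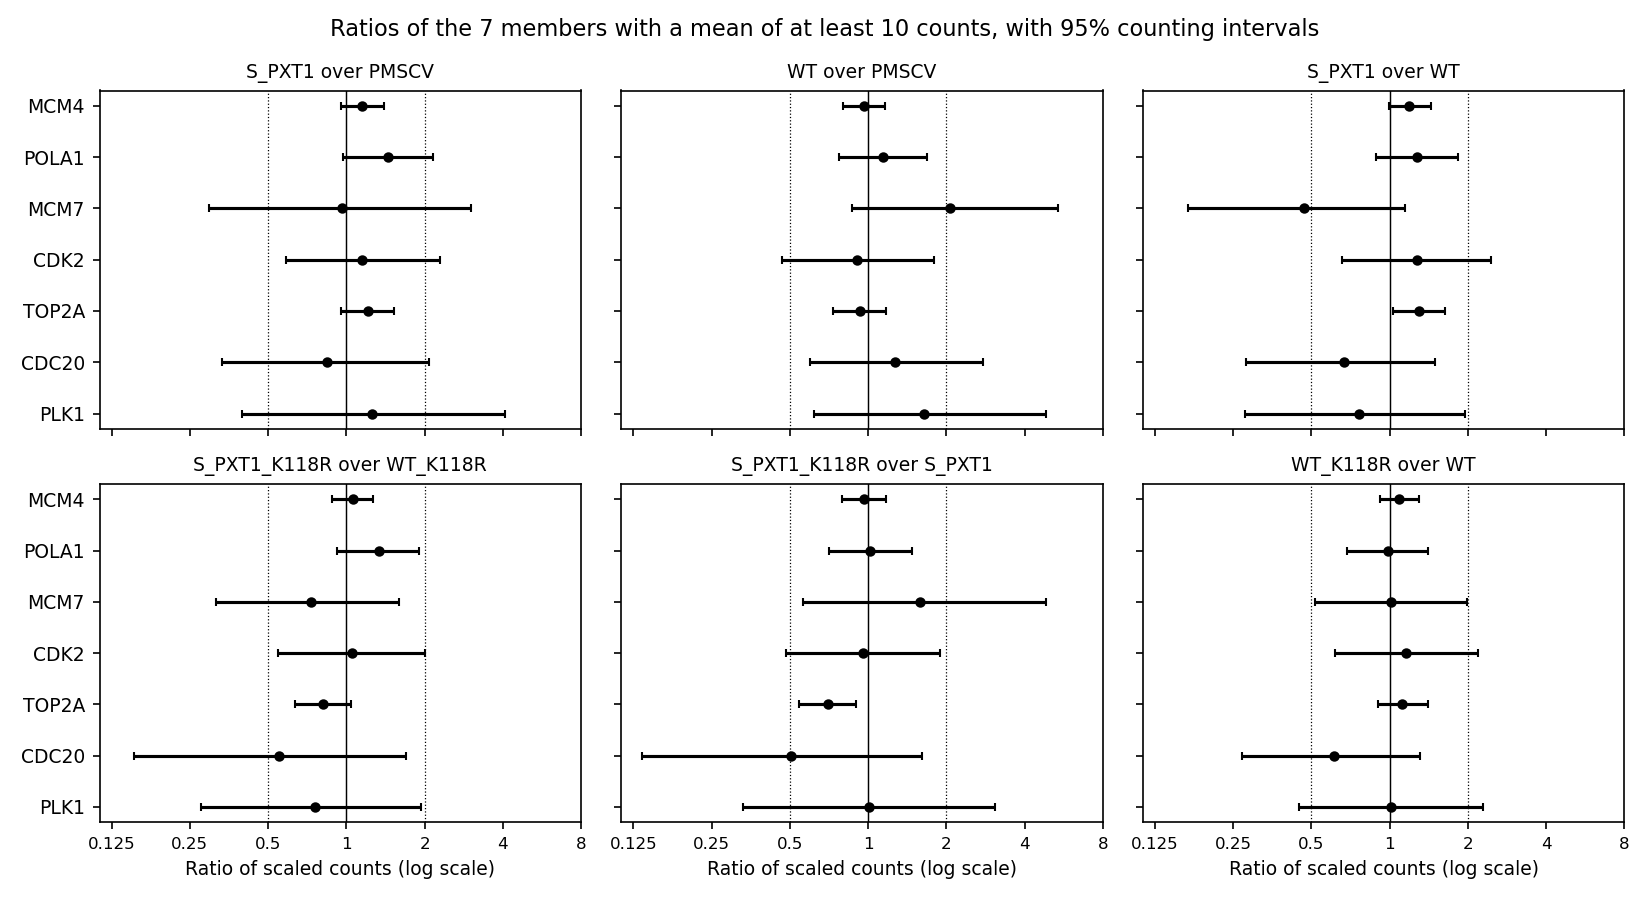
Ratio of scaled counts (horizontal axis, log scale) of the 7 well-counted genes (mean of 10 counts or more) in the 6 comparisons, with exact 95% counting intervals, a line at 1 and dotted lines at 0.5 and 2. Most intervals cross 1, and TOP2A lies below 1 for S_PXT1_K118R over S_PXT1 (0.701) and above it for S_PXT1 over WT (1.30).

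The 7 well-counted members were then set beside all genes. A gene was called higher or lower at a 2-fold ratio. With S_PXT1 over PMSCV, 0 of the 7 were higher and 0 lower, where 3.70% and 15.3% of the 2322 well-counted genes were. The median log2 ratio of the 7 was 0.21, and that of all such genes 0.09. In the other comparisons these medians were 0.19 and 0.08 for WT over PMSCV, 0.26 and -0.01 for S_PXT1 over WT, and -0.30 and -0.02 for S_PXT1_K118R over WT_K118R. They were -0.05 and -0.02 for S_PXT1_K118R over S_PXT1, and 0.02 and -0.00 for WT_K118R over WT. With WT over PMSCV 1 was higher (MCM7) and 0 lower, against 3.88% and 3.88%. For S_PXT1 over WT 0 were higher and 1 was lower (MCM7), against 3.40% and 14.2%. For S_PXT1_K118R over WT_K118R 0 of 7 passed in either direction, against 3.10% and 14.8%. Within the backgrounds 0 of 7 passed as well, against 6.12% higher and 6.33% lower for S_PXT1_K118R over S_PXT1, and 3.79% and 3.92% for WT_K118R over WT. With 7 genes, a background share of 15.3% corresponds to about 1 gene, so a count of 0 sets the group apart from the rest in no comparison. Between its highest and lowest library CDC20 differed 2.98-fold and MCM7 2.17-fold, where the median of all well-counted genes was 1.67-fold. Summed, the 7 were 1.19 (1.04 to 1.36) for S_PXT1 over PMSCV and 1.18 (1.04 to 1.34) for S_PXT1 over WT, which share S_PXT1. Scaled by total counts the first was 1.12 (0.981 to 1.27), and by the genes counted in all 5 libraries 1.05 (0.918 to 1.19). The second was 1.20 (1.06 to 1.36) and 1.14 (1.01 to 1.29) in these scalings, so its interval stayed above 1. These intervals cover counting error alone.

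All 40 members with at least 1 count were then read by a stricter rule, a 2-fold ratio whose counting interval excludes 1. With S_PXT1 over PMSCV 4 of 40 were lower (CDK6, CCND2, RB1 and CDK1), or 10%, against 5.03% of 16237 genes, and 0 were higher, against 0.641%. For WT over PMSCV PLK4 was higher, against 1.08%, and NCAPG and CDK1 were lower, against 1.87%. For S_PXT1 over WT CDK6, CCND3 and PLK4 were lower, 7.5% against 4.42%, and 0 were higher, against 0.616%. For S_PXT1_K118R over WT_K118R PLK4 and MKI67 were lower, 5% against 4.43%, and 0 were higher, against 0.659%. With S_PXT1_K118R over S_PXT1, NCAPG was higher, against 0.942%, and 0 members were lower, against 0.936%. With WT_K118R over WT, NCAPG and MKI67 were higher, against 1.57%, and CDK6 and CCND3 lower, against 1.66%. These shares rest on 1 to 4 genes each. The 16237 genes were not matched to the members in counts, and an interval excludes 1 more readily at more counts. Of the members with a mean above 0 and below 10, 81.8% had a count in PMSCV, against 65.9% of all genes in that range. The shares are therefore not read as an excess among the members.

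The 34 members with a mean below 10 counts summed to 147, 153, 147, 47 and 80 counts. PMSCV and the WT libraries were level, and both S_PXT1 libraries were below them. S_PXT1 over PMSCV was 0.351 (0.247 to 0.490), where all 48545 genes below that mean gave 0.427 (0.418 to 0.436). S_PXT1 over WT was 0.410 (0.289 to 0.571), where all such genes gave 0.471. In these comparisons the interval of the members included the value of all low-count genes. Within that sum the 3 groups gave ratios of different size. For S_PXT1 over PMSCV the 12 low-count replication genes gave 0.739 (0.445 to 1.21), the 10 G1/S genes 0.162 (0.0706 to 0.328) and the 12 mitotic genes 0.229 (0.0984 to 0.477). The interval of the replication genes lay above that of the G1/S genes and overlapped that of the mitotic genes. CDK6 gave 18 of the 61 counts of these G1/S genes in PMSCV and 0 of the 9 in S_PXT1. Whether their interval stays apart without CDK6 was not tested. S_PXT1_K118R over WT_K118R was 0.722 (0.543 to 0.954), above the 0.466 of all such genes. S_PXT1_K118R over S_PXT1 was 1.72 (1.18 to 2.52), where all such genes gave 0.968 (0.943 to 0.993). Of the 26 low-count members seen in either of those 2 libraries, 18 were higher in S_PXT1_K118R (69.2%), where 55.8% of the 7006 genes of that range were. WT_K118R over WT gave 20 of 29 (69%), against 56.6%, so the share was as high there. In S_PXT1_K118R over S_PXT1 NCAPG, CDK4, MCM5, TYMS and CCND3 gained the most counts. Those 5 were named after their values were seen.

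**Figure D5:**
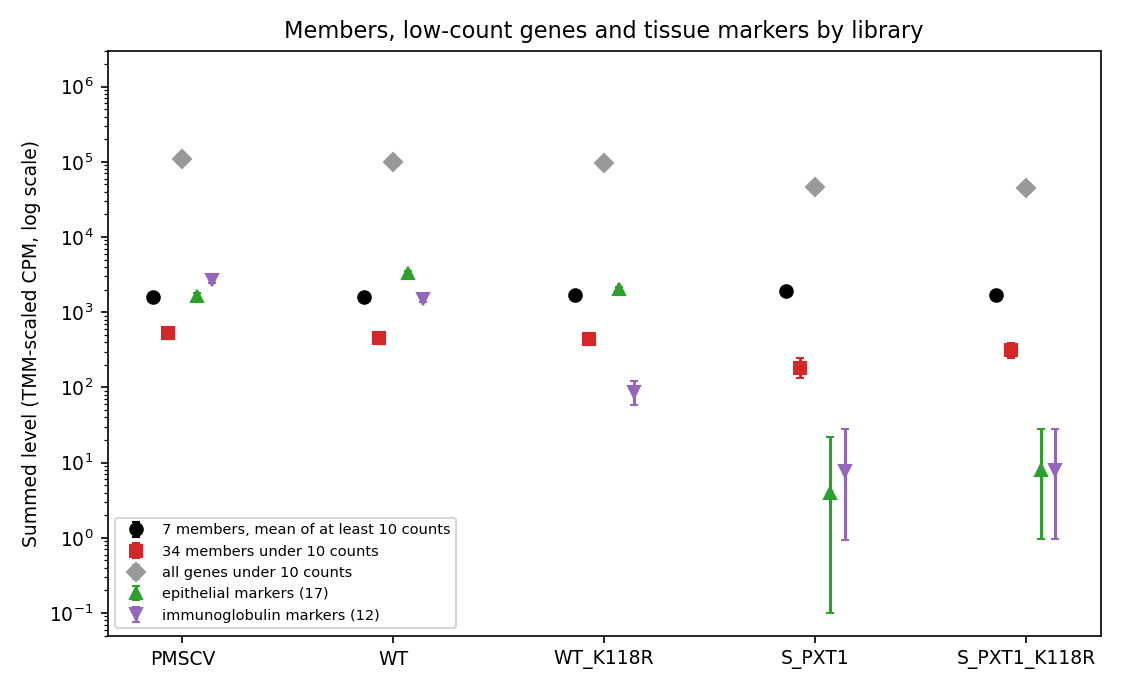
Summed level (vertical axis, TMM-scaled CPM, log scale) by library of the 7 well-counted members, the 34 members below a mean of 10 counts, all genes below that mean, and the epithelial and immunoglobulin markers, with exact 95% counting intervals. The 7 stay between 1590 and 1891 CPM, the 34 are lowest in S_PXT1 (183.2 CPM), and the markers are near 0 in both S_PXT1 libraries.

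Detection followed the same division. Of the 33 members with a mean above 0 and below 10, 27 had a count in PMSCV, 25 in WT, 27 in WT_K118R, 19 in S_PXT1 and 22 in S_PXT1_K118R. Of the 13915 genes in that range 65.9%, 67.5%, 66%, 36.9% and 34.6% had one. Epithelial and immunoglobulin markers were near 0 in the 2 libraries with fewer genes. The part of such tissue reads in the counts of the low members was not tested.

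Further genes of the same 3 processes, 164 in all and all in the table, were taken from a wider list of the pathways. The 39 other G1/S genes summed to 2859 CPM in PMSCV, 3132 in WT, 2907 in WT_K118R, 3158 in S_PXT1 and 3066 in S_PXT1_K118R. S_PXT1 over WT was 1.01 (0.919 to 1.11) for this sum, where the 11 regulators gave 0.455. These sums are unlike in depth, since 10 of the 39 genes were well counted and 1 of the 11 regulators. All low-count genes gave 0.471 in that comparison. Of the 10 well-counted genes among the 39, 0 passed 2-fold in any of the 6 comparisons. The 54 other replication genes summed to between 752.4 CPM in S_PXT1 and 915.4 CPM in WT, a ratio of 0.822 (0.683 to 0.987), where the 15 replication members gave 1.13 (0.968 to 1.31). Of the 5 well-counted ones only DNMT1, the maintenance DNA methyltransferase, passed 2-fold, with 4 counts in S_PXT1_K118R against 11 in S_PXT1 and 13 in WT_K118R. Both of its intervals included 1 (ratios of 0.367 and 0.408), and it was named after its values were seen.

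The 71 other mitotic genes summed to between 3969 CPM in PMSCV and 4203 CPM in S_PXT1. Of the 13 well-counted ones 3 passed 2-fold somewhere. ANAPC7, a subunit of the anaphase-promoting complex, had 4, 23, 16, 16 and 12 counts, so that PMSCV was the low library. It was 4.73-fold higher in WT than in PMSCV (1.62 to 18.8) and 4.39-fold higher in S_PXT1 (1.41 to 18.0), 2 ratios that share PMSCV. CDC23, another subunit of that complex, had 13, 14, 17, 13 and 0 in that order and was, at the floor, at least 4.27-fold lower in S_PXT1_K118R than in WT_K118R. It was also at least 4.30-fold lower than in S_PXT1, with exact intervals that begin at 3.11-fold and 3.02-fold. SMC3, a cohesin subunit, had 22, 26, 18, 9 and 12, and its ratios of 0.448 for S_PXT1 over PMSCV and 0.461 for S_PXT1 over WT had intervals that reached 1.01 and 1.02. SMC3 too was named after its values were seen.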

How the data were processed

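RNA sequencing of Ba/F3 cells gave 5 libraries, 1 per group, grouped by their titles. The authors deposited 1 table with read counts and FPKM values (which adjust for gene length and library size), according to its headers. Tools listed in the submitters' processing notes are HISAT2 2.2.1, cutadapt 1.9 and FastQC, without their roles. For the counter, its strand setting, the annotation and the build: not given in the sources used here. There were 0 value columns without a library.

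From the counts, libraries were scaled by TMM in edgeR 4.0.16 under R 4.3.3. Ratios are of scaled counts, with exact (Clopper-Pearson) 95% intervals, and levels carry exact Poisson intervals. Both cover counting error only, as no molecular identifiers are named in the labels and reads can be copies of 1 molecule. A 0 was set to a floor of 3 counts in that library. Called genes were past 2-fold, and well-counted genes had a mean of at least 10 counts. The interval routine was tested on simulated counts. Members and lists were chosen with earlier results of these data known. CDK1 was placed with mitosis. Not every marker on the lists is reported here.

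The naming rule gave well-counted members their value in every library, and others a name where the ratio passed 2-fold with an interval excluding 1. Counts of the remaining members are added so that all 41 are accounted for. Of other listed genes it named, per role, the 2 highest and 2 lowest that were well counted and passed both conditions. DNMT1 and SMC3 fall outside it. Alternative scalings were DESeq2 1.42.0 size factors, total counts and the total of genes counted in all 5 libraries. Other alternatives were FPKM sums, other filters (means of 5 and 20 counts, none), a pseudocount of 1 CPM, sums without the top member, and CDK1 with G1/S. Overlapping gene models were also summed, on the same strand alone. Overlaps on the opposite strand, as for NCAPG and RFC4, were thus not checked.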

Additional observations from a re-analysis of the deposited data

How the results depend on the processing

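With 1 library per group no replicate could be left out. No paired analysis was possible because each group holds 1 library and no test was made. Of the 120 alternative values of the summed folds, 113 lay within the counting interval of the main value. The other 7 all left out the member with the most counts. Without CDK2 the G1/S fold was 0.162 for S_PXT1 over PMSCV, 0.187 for S_PXT1 over WT and 2.91 for S_PXT1_K118R over S_PXT1. Without TOP2A the mitosis fold was 0.470 for S_PXT1 over PMSCV, 0.467 for S_PXT1 over WT and 0.391 for S_PXT1_K118R over WT_K118R, and it turned from 0.752 to 1.05 for S_PXT1_K118R over S_PXT1. Counts of members past 2-fold depended on the filter. For a minimum mean of 5 counts and for no filter, the share over all genes was not computed. The counts there are therefore not read as a trait of the members. Low-count genes as a whole were mostly lower in S_PXT1. For S_PXT1 over PMSCV 71.3% of them were lower by any amount, where 86.2% of 29 low-count members were. At a minimum mean of 5 counts, 6 were lower for S_PXT1 over PMSCV and 6 for S_PXT1 over WT, 2 were higher and 2 lower for WT over PMSCV, 2 were lower for S_PXT1_K118R over WT_K118R, 3 were higher for S_PXT1_K118R over S_PXT1, and 1 was higher and 1 lower for WT_K118R over WT. With no filter the higher and lower counts were 1 and 12 for S_PXT1 over PMSCV, 3 and 8 for WT over PMSCV, 3 and 11 for S_PXT1 over WT, 3 and 4 for S_PXT1_K118R over WT_K118R, and 8 and 4 for WT_K118R over WT, with 9 higher for S_PXT1_K118R over S_PXT1. MCM7 passed in WT over PMSCV by little, and 0 members were higher there with total counts, with the total of genes counted in all 5 libraries, or at a minimum mean of 20 counts. At that mean 0 were lower for S_PXT1 over WT. Of the 82 ratios of single genes, 0 moved by over 1.5 times with DESeq2 size factors, total counts or summed gene models. That outcome was fixed beforehand. These 2 scalings shift all log2 ratios of a comparison alike, by -0.12 to 0.07, which is too little. Gene models were summed on the same strand alone. There CDKN1B alone overlapped a counted model, and it is not among these ratios. A pseudocount of 1 CPM moved 16, all with a count of 0 in 1 library, such as CDK6 in S_PXT1 over PMSCV from 0.183 to 0.0154 and PLK4 in WT over PMSCV from 6.03 to 65.3. Scaling by genes counted in all 5 libraries moved every log2 ratio of S_PXT1 over PMSCV by -0.18, and the replication fold there was then 0.998.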

Other observations

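The 6 subunits of the MCM helicase, which assemble in equal numbers, were counted very unequally. On the FPKM scale, a level per gene length, MCM4 lay between 60.6 in WT and 73.8 in S_PXT1. The other 5 subunits lay between 0.308 for MCM5 in WT and 5.85 for MCM7 in WT_K118R. TOP2A and POLA1 were likewise high, from 58.5 to 81.5 FPKM and from 21.8 to 31.0 FPKM, while MKI67 lay between 0.227 and 2.13 FPKM. The share of mouse reads that a human gene model collects was not tested, and these levels cannot be read as the amounts of the mRNAs. PCNA, with 2 to 8 counts, has processed copies in the table, of which PCNAP1, PCNAP3 and PCNAP4 had at most 1 count in any library. RRM2P3, a copy of RRM2, had 2 counts in PMSCV and 2 in S_PXT1_K118R, where RRM2 had 8 and 2.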
